A study of Homo sapiens with 9 samples.

Results

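The genes described here are the well expressed members of the ZNF family: protein-coding genes whose symbol is ZNF followed only by digits, with a mean level of at least 20 CPM over all libraries (CPM, the reads of a gene scaled by all reads in genes of that library), ZNF644 left out by the rule. They were thus chosen by their level in these same libraries, without regard to the groups. They numbered 112, of 476 protein-coding ZNF genes and 60308 gene IDs in all. ZNF343, ZNF654 and ZNF704 lay just inside the limit, at 20.1, 20.3 and 20.3 CPM, and ZNF224, ZNF426 and ZNF430 just outside it, at 19.9, 19.9 and 19.8 CPM. All 112 passed the filter on low counts. In 8 of them, among them ZNF525, ZNF141 and ZNF100, the mean of at least 1 group was under 20 CPM, and in the other 104 every group mean reached it.

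RNA was sequenced in 9 cultures of MCF10A, human mammary epithelial cells that grow without limit but are not tumour-derived. Every culture carried pBABE-hygro-MYC, which expresses MYC, and pMN-IRES-GFP-PI3KH1047R, which expresses a mutant PI3K, together with a pLKO-tetON-puro hairpin that 2 µg/mL doxycycline induced for 72 hours. The groups of 3 cultures held shG9a_1 or shG9a_4, 2 hairpins aimed at EHMT2, which encodes the histone methyltransferase G9a, or shSCR, a scrambled hairpin. The scrambled cultures thus shared the MYC and PI3K constructs and the doxycycline, and no uninduced culture was analysed here.

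Libraries held 53065611 to 76958831 reads in genes, and single members 885 reads or more in every library. EHMT2 was at 20.3 ± 2.8 CPM in shG9a_1, 31.0 ± 3.6 CPM in shG9a_4 and 47.6 ± 3.3 CPM in shSCR (SD, n = 3 each). The log2 fold change of EHMT2 was −1.21 (SE 0.11, edgeR adjusted p = 0.00766) in shG9a_1 and −0.61 (SE 0.11, adjusted p = 0.259) in shG9a_4, both against shSCR, so the knockdown passed the threshold of 0.05 with the first hairpin and not with the second. The first call was lost without replicate 2 or 3 of shG9a_1 or replicate 1 of shSCR (adjusted p = 0.0513 to 0.0622), at log2 fold changes of −1.29 to −1.15. The 8 epithelial markers summed to 3195 to 4483 CPM in shG9a_1, 2596 to 4053 CPM in shG9a_4 and 2451 to 3914 CPM in shSCR. The 4 immune markers summed to 1.95 to 6.34, 3.03 to 4.77 and 2.99 to 4.34 CPM, and the 3 endothelial ones to 0.955 to 1.39, 0.653 to 0.961 and 0.574 to 0.874 CPM, in the same order. The 7 fibroblast markers summed to 195 to 423, 143 to 415 and 161 to 338 CPM: DCN was at 137 to 412 CPM, LUM at 2.4 to 7.7 CPM and COL1A1 at 1.0 to 2.0 CPM, and the other 4 were under 1 CPM in every library. Replicate 2 of shG9a_4 stood furthest from its group: a chi-square comparison of counts, divided by its degrees of freedom, gave 59.1 and 78.9 against replicates 1 and 3. Results that turn on this library are also given without it.

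ZNF proteins carry zinc fingers of the C2H2 kind, short folds in which paired cysteines and histidines hold a zinc ion and which usually bind DNA in tandem. Many carry a KRAB domain as well, which recruits the corepressor TRIM28, and through it HP1 proteins and SETDB1, which trimethylates H3K9, mainly to transposable elements. KRAB zinc finger genes lie in clusters, the largest of them on chromosome 19. G9a makes H3K9 mono- and dimethylation and is a separate enzyme from SETDB1.

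By a profile search of the longest annotated proteins, 54 of the 112 members held a KRAB domain. By a fixed sequence pattern, 7 held a SCAN domain, an oligomerisation domain found in some zinc finger proteins (ZNF24, ZNF197, ZNF202, ZNF263, ZNF397, ZNF445 and ZNF496). The members had a median of 10 zinc fingers, with ZNF462 at 34, ZNF91 at 32, and ZNF142 and ZNF236 at 31 each. Chromosome 19 held 34 members, of which 27 were KRAB genes. KRAB genes made up 48.2% of the members and 72.2% of the 363 ZNF genes under the limit, and chromosome 19 held 30.4% and 57.0% of them. Members with KRAB had a median level of 28.0 CPM and those without of 37.4 CPM, or 4.9 and 6.0 CPM per kilobase of exon.

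No member passed the threshold in any comparison. In shG9a_1 against shSCR, 0 of the 112 members had an edgeR adjusted p under 0.05, where 0.038% of the 18435 genes tested did, and 10 members had an unadjusted p under 0.05 (8.93%, against 7.5% of all genes tested). The fit with the replicate block also called 0 members (0.776% of all genes). The other comparisons likewise called 0 members: in shG9a_4 against shSCR 0.0271% of all genes tested were called (0.0759% with the block) and 3 members had an unadjusted p under 0.05 (2.68%, against 2.38%), and with both hairpins against shSCR 0.0488% were called (0.184% with the block) and 8 members had an unadjusted p under 0.05 (7.14%, against 4.74%). With the block, 14 members had an edgeR unadjusted p under 0.05 in shG9a_1 (12.5%, against 13.3% of all genes tested). The numbers were 4 in shG9a_4 (3.57%, against 4.9%) and 9 with both hairpins (8.04%, against 9.56%). With the block the members were thus below the share of all genes, and without it above. DESeq2 called 1 member, ZNF525 in shG9a_1, where it called 0.397% of genes, and 0 members in the other comparisons, where it called 0.121% of genes in shG9a_4, 0.24% with both hairpins and 0.0112% between the hairpins. The 95% interval of the fold change lay within 2-fold for all 112 members in every comparison, and within 1.5-fold for all but ZNF525 in shG9a_1. These are bulk cultures, in which fewer cells expressing a gene and less RNA per cell cannot be told apart.

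By group, most members were slightly lower with either hairpin, but not in every library. In shG9a_1 against shSCR, 81 of 112 members (72.3%) had a log2 fold change below 0, where 49.8% of all genes tested did, and 47.7% of the 6516 protein-coding genes in the same range of CPM. The median log2 fold change was −0.042 over the members and 0.00086 over all genes tested. In shG9a_4, which shares the shSCR libraries, 71 of 112 (63.4%) were below 0, against 49.2% of all genes and 49.4% of the genes in range, with a median of −0.024. With both hairpins against shSCR, 79 of 112 (70.5%) were below 0, against 49.8% and 48.4%, with a median of −0.043. All 3 shG9a_1 libraries were below all 3 shSCR libraries in 26 members (23.2%, against 10.5% of all genes tested and 13.9% of the genes in range) and above them in 2, ZNF217 and ZNF532 (1.79%, against 5.64%). For shG9a_4 the groups did not overlap in 10 lower members (8.93%, against 4.15% and 4.6%) and in 1 higher member, ZNF532 (0.893%, against 2.89%). These counts are of unscaled CPM and depend on the scaling. On TMM-scaled CPM, as in the fits, 17 members were lower (against 7.54% of all genes) and 4 higher (7.15%) in shG9a_1, and 7 lower (3.18%) and 1 higher (3.25%) in shG9a_4. The sizes depended on single libraries: the median in shG9a_1 was −0.027 without its replicate 2, and that in shG9a_4 was −0.044 without its replicate 2, −0.014 without its replicate 1 and −0.0095 without its replicate 3. On TMM-scaled CPM, 77 members were above their mean over the 9 libraries in replicate 2 of shG9a_4, and 63 in replicate 1 of shG9a_1. This number was 68 to 75 in the shSCR libraries and 32 to 47 in the other hairpin libraries.

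**Figure D1:**
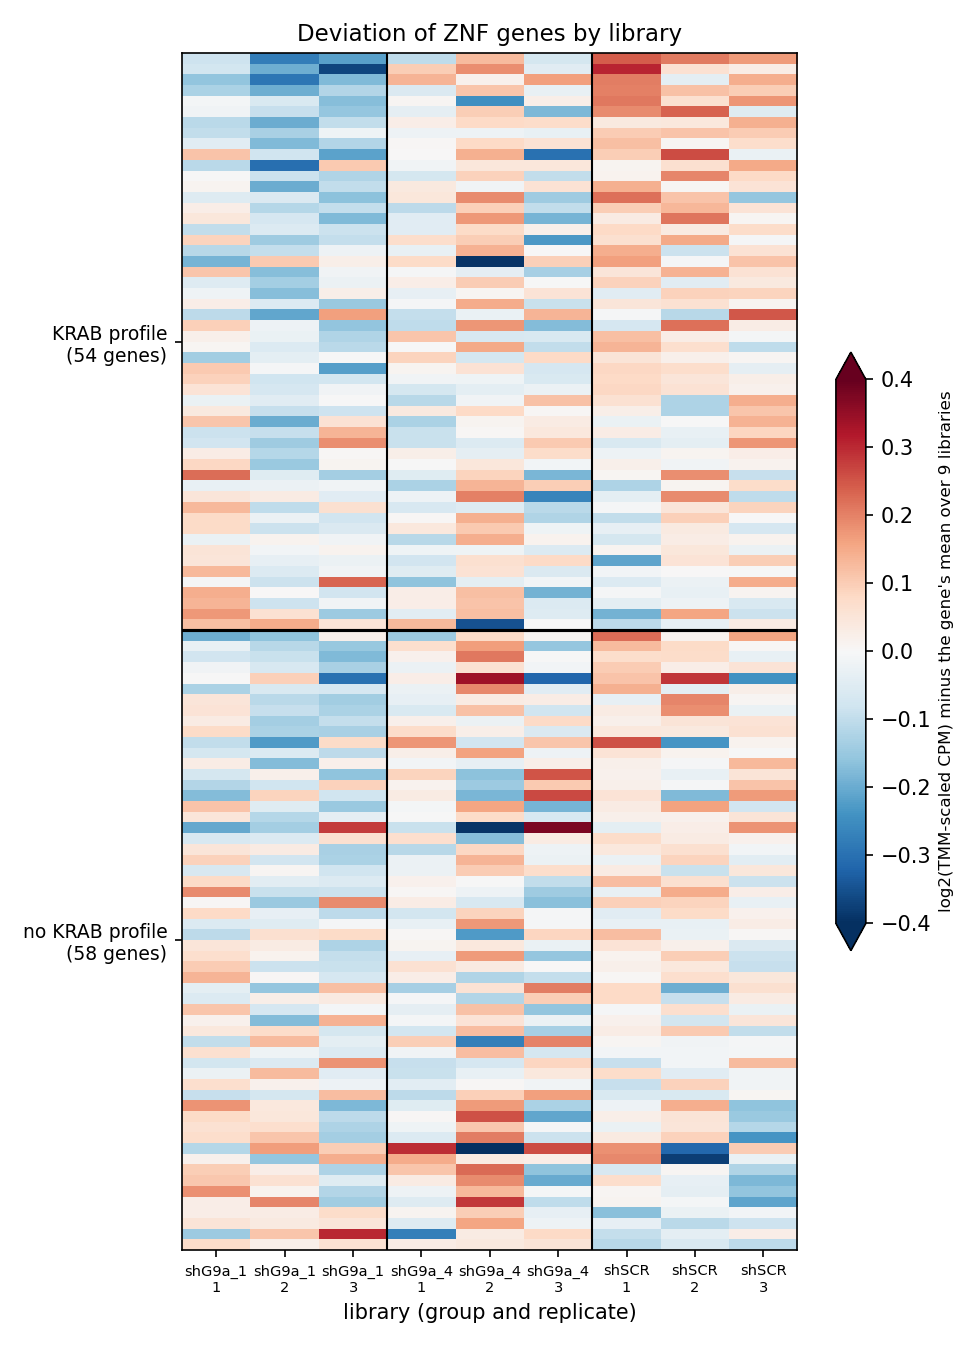
Each row is a ZNF gene and each column a library, grouped as shG9a_1, shG9a_4 and shSCR. Colour gives the gene's log2 TMM-scaled CPM minus its mean over the 9 libraries, KRAB genes stand above the line, and rows run from lowest to highest fold change in shG9a_1. The upper rows are blue in shG9a_1 and red in shSCR, and most rows lie within 0.2 of their mean.

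The shift was larger in the KRAB members. In shG9a_1 against shSCR, 46 of the 54 KRAB members (85.2%) were below 0, with a median log2 fold change of −0.089, and 35 of the 58 members without KRAB (60.3%), with a median of −0.019. In shG9a_4, 42 of 54 KRAB members (77.8%, median −0.040) and 29 of 58 without KRAB (50.0%, median −0.0043) were below 0. With 1 of its own libraries left out, the number of KRAB members below 0 in shG9a_4 was 37 without replicate 1, 46 without replicate 2 and 34 without replicate 3, and that in shG9a_1 was 49, 37 and 41. The 3 shG9a_1 libraries lay below all shSCR libraries in 18 KRAB members (33.3%) and in 8 without KRAB (13.8%). This held for 10.5% of all genes tested and 13.9% of the genes in range, so members without KRAB were near the latter. The shG9a_4 libraries did so in 9 (16.7%) and in 1 (1.72%), against 4.15% and 4.6%. On TMM-scaled CPM these numbers were 12 and 5 for shG9a_1 (against 7.54% of all genes) and 7 and 0 for shG9a_4 (against 3.18%). On chromosome 19, 22 of 27 KRAB members were below 0 in shG9a_1, and elsewhere 24 of 27, with medians of −0.091 and −0.089. In shG9a_4 the numbers were 21 of 27 in each, but the medians were −0.082 on chromosome 19 and −0.036 elsewhere. In CPM, all shG9a_4 libraries were below all shSCR libraries in 7 KRAB members on chromosome 19 (25.9%) and 2 elsewhere (7.41%), against 4.15% of all genes tested. In shG9a_1 the share below 0 was near equal by number of fingers, at 72.9% of the 59 members with 10 or more and 71.7% of the 53 with fewer. In shG9a_4 the shares were 67.8% and 58.5%. The difference between members with and without KRAB is given as a description and was not tested.

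**Figure D2:**
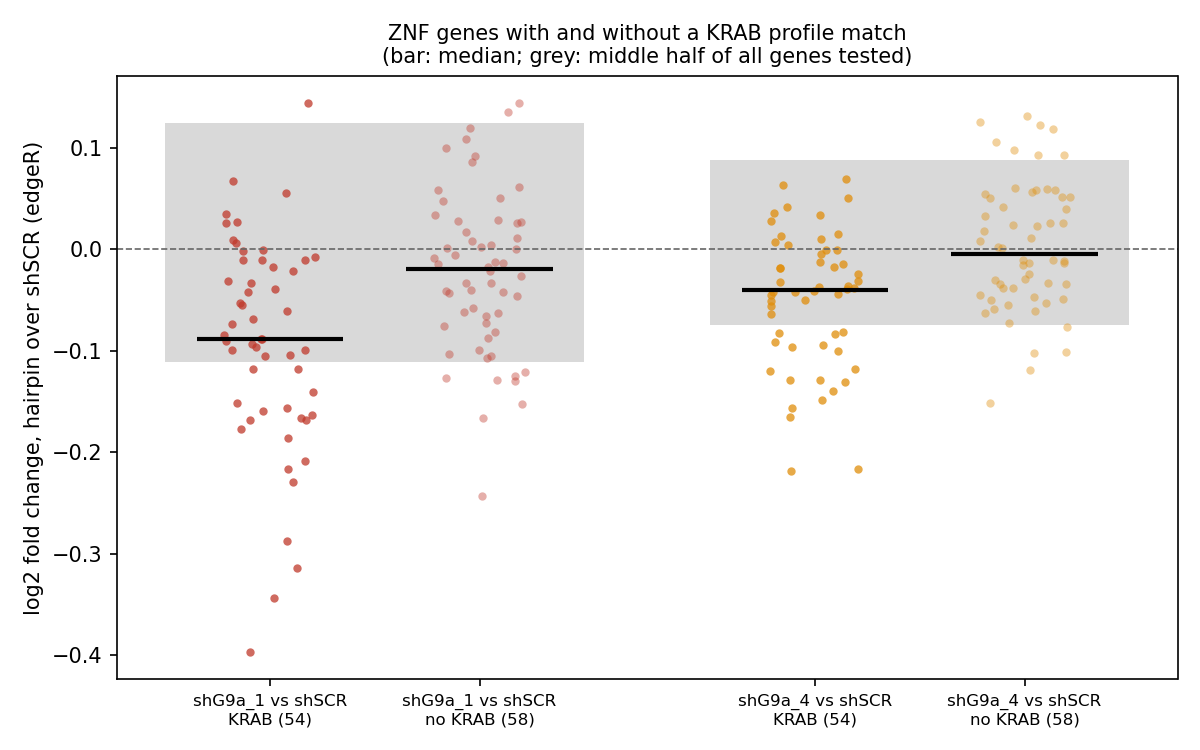
Points are ZNF genes, with the log2 fold change of each hairpin over shSCR on the vertical axis, split by KRAB profile match. Black bars mark the medians (−0.089 and −0.019 for shG9a_1, −0.040 and −0.0043 for shG9a_4), and grey bands hold the middle 50% of all genes tested; the lowest points lie in the KRAB columns.

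Summed over the 54 KRAB members, the level was 1718, 1641 and 1659 CPM in the shG9a_1 libraries, 1691, 1781 and 1727 CPM in shG9a_4, and 1798, 1807 and 1810 CPM in shSCR. The means came to 92.7% of shSCR in shG9a_1 and 96.0% in shG9a_4, and on this scale every hairpin library was below every shSCR library. On TMM-scaled CPM the sums were 1751, 1631 and 1677 in shG9a_1, 1712, 1791 and 1695 in shG9a_4, and 1790, 1801 and 1790 in shSCR (94.1% and 96.6% of shSCR in the mean), so that all shG9a_1 libraries stayed below shSCR and replicate 2 of shG9a_4 did not. The 58 members without KRAB summed to 3655 ± 60 CPM in shG9a_1, 3763 ± 136 CPM in shG9a_4 and 3770 ± 56 CPM in shSCR (SD, n = 3 each). In CPM, the highest shG9a_1 library, at 3709 CPM, was just under the lowest shSCR library, at 3711 CPM, while the shG9a_4 libraries, at 3671, 3919 and 3700 CPM, lay on both sides of the shSCR range. On TMM-scaled CPM the shG9a_1 and shSCR sums of these members overlapped. A sum of CPM weighs the best expressed genes most.

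**Figure D3:**
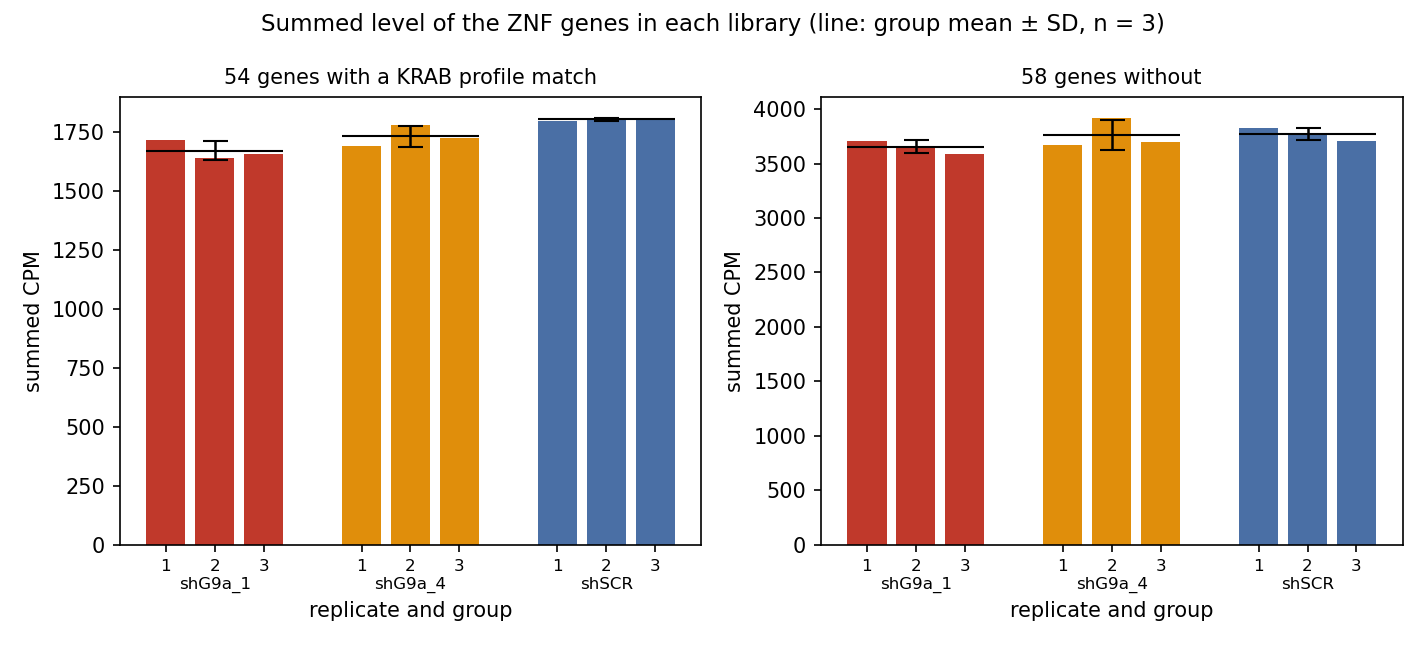
Bars give the summed CPM, without TMM scaling, of the KRAB members (left) and of the other members (right) in each library, with a line and error bar for the group mean ± SD. The KRAB sums stand at 1641 to 1718 in shG9a_1, 1691 to 1781 in shG9a_4 and 1798 to 1810 in shSCR.

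The 4 members with the largest changes in shG9a_1 were KRAB genes. ZNF525 (ENSG00000203326.10) was at 19.99, 17.9 and 18.3 CPM in shG9a_1, 19.9, 23.4 and 20.9 CPM in shG9a_4, and 25.6, 24.98 and 24.5 CPM in shSCR. All 6 hairpin libraries were below the 3 shSCR libraries. Its log2 fold change was −0.40 (SE 0.09, edgeR unadjusted p = 0.00115, adjusted p = 0.378) in shG9a_1 and −0.22 (SE 0.09, adjusted p = 1.0) in shG9a_4. DESeq2 gave an adjusted p of 0.0253 for the first, and edgeR with the replicate number as a block 0.0706. Its mean was 18.7 ± 1.1 CPM in shG9a_1, 21.4 ± 1.8 CPM in shG9a_4 and 25.1 ± 0.55 CPM in shSCR (SD, n = 3 each).

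ZNF300 (ENSG00000145908.12) was at 38.9, 36.6 and 32.0 CPM in shG9a_1, 44.0, 47.1 and 41.1 CPM in shG9a_4, and 51.7, 43.6 and 43.0 CPM in shSCR, and its log2 fold change in shG9a_1 was −0.34 (SE 0.10, adjusted p = 0.579, or 0.0588 with the replicate block). ZNF141 (ENSG00000131127.13) was at 19.6, 18.4 and 19.5 CPM in shG9a_1, 24.2, 22.5 and 25.5 CPM in shG9a_4, and 25.9, 21.8 and 24.97 CPM in shSCR and in shG9a_1 its log2 fold change came to −0.31 (SE 0.09, edgeR adjusted p = 0.557). For both genes the shG9a_1 libraries were below all others, while the shG9a_4 libraries overlapped shSCR. ZNF100 (ENSG00000197020.10), at 18.8, 18.4 and 19.1 CPM in shG9a_1, 19.9, 22.5 and 20.9 CPM in shG9a_4 and 24.2, 22.8 and 22.7 CPM in shSCR, was lower in all 6 hairpin libraries on this scale (not on TMM-scaled CPM), and its log2 fold change was −0.29 (SE 0.08) in shG9a_1 and −0.13 (SE 0.08) in shG9a_4. With the replicate block and without replicate 2 of shG9a_4, these 4 genes passed the threshold in shG9a_1, at edgeR adjusted p-values of 0.0142 for ZNF525, 0.0121 for ZNF300, 0.0289 for ZNF141 and 0.0408 for ZNF100. ZNF300, ZNF141 and ZNF100 were each called in only 1 of 23 alternative fits. The share of all genes called in that fit is not given here, so these calls cannot be set against it.

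**Figure D4:**
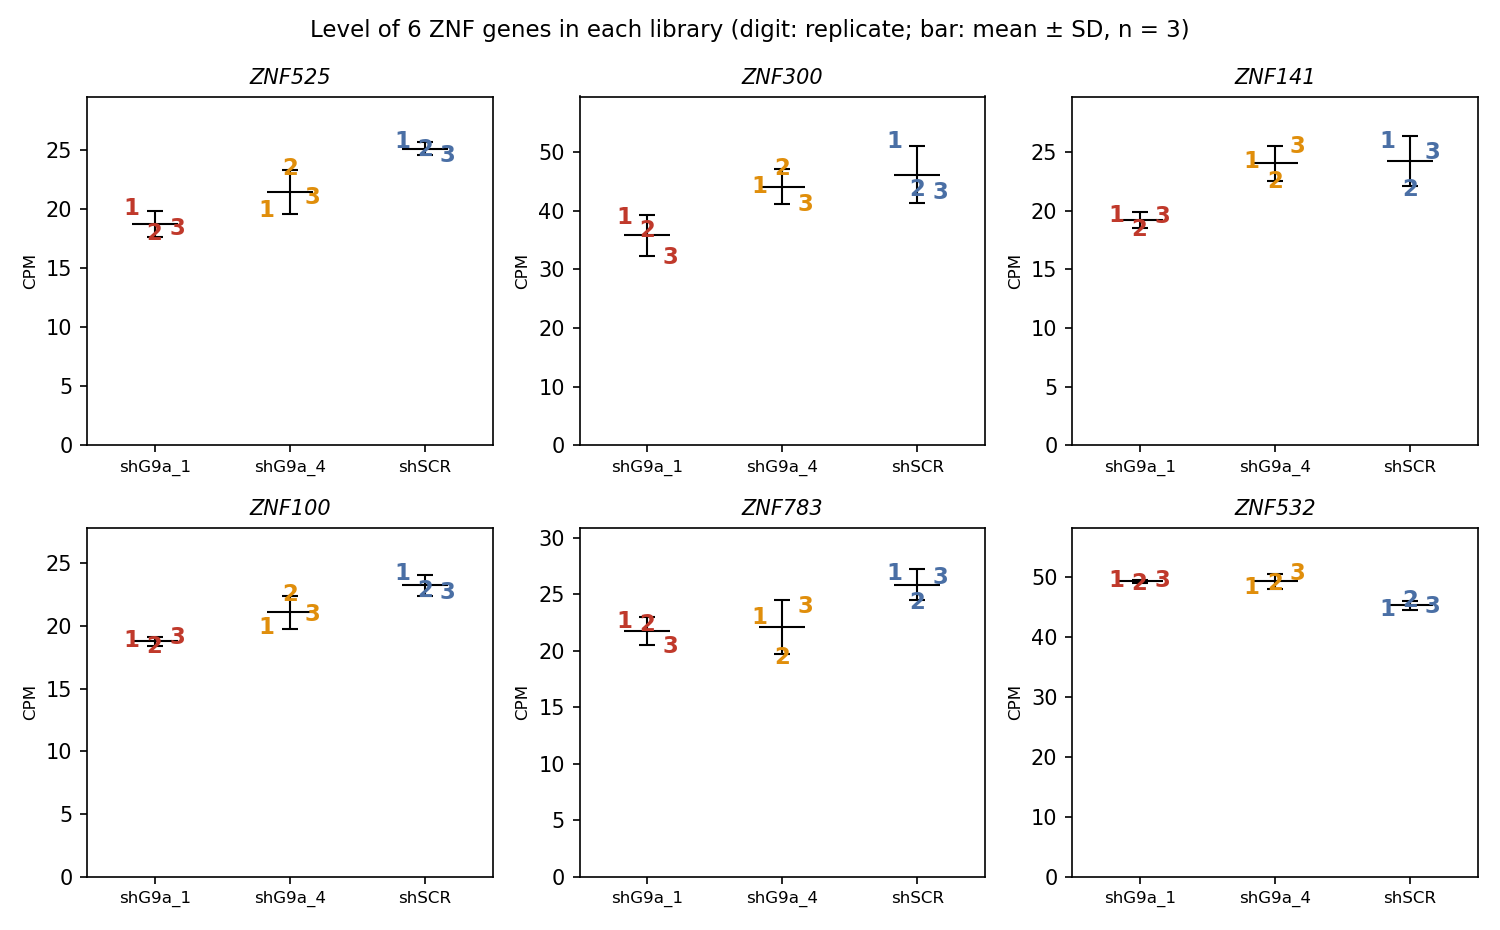
Digits mark the CPM of each replicate in shG9a_1, shG9a_4 and shSCR, and bars the mean ± SD. ZNF525, ZNF100 and ZNF783 are lower and ZNF532 is higher in all 6 hairpin libraries than in the shSCR libraries (for ZNF100 not once TMM-scaled), while ZNF300 and ZNF141 are set apart in shG9a_1 alone.

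The 250 bases before the start of these 4 genes are shown because ZNF141 and ZNF100 share letters there. They were taken from RefSeq (GRCh38.p14), at chr19:53365455-53365704 on the + strand for ZNF525, chr5:150904981-150905230 on the − strand for ZNF300, chr4:337564-337813 on the + strand for ZNF141 and chr19:21767580-21767829 on the − strand for ZNF100, and are written along the gene's strand. Capitals mark CTGTCACTC and CCAATCAG, searched on both strands.
ZNF525: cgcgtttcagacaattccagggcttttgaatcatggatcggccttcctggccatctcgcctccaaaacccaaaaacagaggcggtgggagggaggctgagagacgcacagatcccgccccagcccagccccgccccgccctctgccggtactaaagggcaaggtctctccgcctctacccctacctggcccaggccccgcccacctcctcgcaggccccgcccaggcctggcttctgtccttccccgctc
ZNF300: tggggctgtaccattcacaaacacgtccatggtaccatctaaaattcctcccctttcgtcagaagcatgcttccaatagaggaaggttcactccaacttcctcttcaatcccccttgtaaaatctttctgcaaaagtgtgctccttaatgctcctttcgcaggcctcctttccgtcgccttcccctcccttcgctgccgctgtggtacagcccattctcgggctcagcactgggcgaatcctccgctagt
ZNF141: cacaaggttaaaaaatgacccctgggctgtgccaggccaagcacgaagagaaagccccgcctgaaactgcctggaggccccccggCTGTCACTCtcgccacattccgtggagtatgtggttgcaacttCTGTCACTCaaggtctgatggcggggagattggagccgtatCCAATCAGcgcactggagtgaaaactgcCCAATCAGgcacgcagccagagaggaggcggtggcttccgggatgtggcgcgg
ZNF100: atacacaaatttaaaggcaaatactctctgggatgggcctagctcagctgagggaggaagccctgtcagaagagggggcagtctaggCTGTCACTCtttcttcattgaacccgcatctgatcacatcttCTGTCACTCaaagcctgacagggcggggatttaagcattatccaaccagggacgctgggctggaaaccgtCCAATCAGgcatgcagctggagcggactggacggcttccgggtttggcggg
In a global alignment, ZNF141 and ZNF100 were identical at 71.5% of 239 aligned bases, and the other 5 pairs of the 4 genes at 56.1 to 66.0%. Both held CTGTCACTC in a pair, starting at −165 and −122 from the gene's start in ZNF141 and at −163 and −121 in ZNF100. ZNF525 and ZNF300 held neither string in this window.

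CTGTCACTC was chosen after the fold changes were seen, and its counts are a description. Of the 112 members, 100 matched the promoter table, and 10 of them held it (ZNF91, ZNF92, ZNF100, ZNF141, ZNF195, ZNF367, ZNF431, ZNF678, ZNF714 and ZNF724), 7 of them KRAB genes. Among all protein-coding genes matched, 146 of 15189 (0.961%) held it, or 0.695% of 21439 promoters of this length, and among the other ZNF genes 40 of 303 (13.2%). Windows of 40 bases around it are printed for the 8 members not shown above, so that the flanks can be compared, from chr19:23395575-23395614 (− strand) for ZNF91, chr19:21141897-21141936 (+) for ZNF431, chr19:21082060-21082099 (+) for ZNF714, chr11:3379266-3379305 (−) for ZNF195, chr1:227563417-227563456 (+) for ZNF678, chr9:96418439-96418478 (−) for ZNF367, chr7:65373673-65373712 (+) for ZNF92 and chr19:23250535-23250574 (−) for ZNF724.
ZNF91: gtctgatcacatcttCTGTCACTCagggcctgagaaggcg
ZNF431: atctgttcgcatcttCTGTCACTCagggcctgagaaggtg
ZNF714: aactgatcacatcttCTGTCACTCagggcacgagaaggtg
ZNF195: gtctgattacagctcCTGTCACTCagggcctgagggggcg
ZNF678: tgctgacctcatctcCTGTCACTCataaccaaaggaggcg
ZNF367: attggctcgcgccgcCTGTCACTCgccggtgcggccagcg
ZNF92: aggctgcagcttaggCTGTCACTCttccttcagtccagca
ZNF724: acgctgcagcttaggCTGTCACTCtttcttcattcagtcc
Of the 15 bases before and 16 bases after the string in the ZNF91 window, ZNF431, ZNF714 and ZNF195 shared 12 to 13 and 13 to 15, and ZNF678 10 and 10. ZNF367 shared 6 and 5, ZNF92 2 and 2, and ZNF724 2 and 3. All were compared with the ZNF91 copy at −128 alone. The copies in ZNF92 and ZNF724 started at −167 and −165, near the first copy of the pairs in ZNF141 and ZNF100. In ZNF724 and in the copy at −163 in ZNF100, tttcttcatt followed the string. The low numbers for ZNF92 and ZNF724 thus do not show that their flanks are unlike those of the other copies. The copies shown started between −167 and −93 from the gene's start, and ZNF431 and ZNF91 held a second copy outside the window printed. All 10 members with CTGTCACTC had a log2 fold change below 0 in shG9a_1, between −0.31 in ZNF141 and −0.00038 in ZNF91, with a median of −0.16, against 65 of the 90 matched members without it (72.2%, median −0.042). The 10 include ZNF141 and ZNF100, shown above for their large changes in shG9a_1, so the median of the 10 is not independent of that choice. In shG9a_4, 8 of the 10 were below 0, with a median of −0.025, against 57 of 90 (63.3%, median −0.030). ZNF91, a repressor of SVA and LINE-1 elements, also carried the string as a pair, and its level was 41.2 ± 1.2 CPM in shG9a_1, 42.4 ± 3.9 CPM in shG9a_4 and 41.8 ± 1.6 CPM in shSCR (SD, n = 3 each). For comparison, the E-box CACGTG, the site of MYC and related factors, was found in 7 of the 100 members and in 9.78% of all protein-coding genes. No binding was measured here.

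Beside ZNF525 and ZNF100, 3 further members were lower in all 6 hairpin libraries than in every shSCR library, 5 in all (4.46%, against 2.12% of all genes tested and 2.99% of the genes in range). On TMM-scaled CPM only ZNF525, ZNF783 and ZNF473 were (against 1.3% of genes). All 5 are KRAB genes, and ZNF473 and ZNF317 were picked out after their values were seen. ZNF783 (ENSG00000204946.9) was at 22.6, 22.3 and 20.3 CPM in shG9a_1, 23.0, 19.4 and 23.9 CPM in shG9a_4, and 26.8, 24.2 and 26.4 CPM in shSCR. Its log2 fold change was −0.23 (SE 0.09) in shG9a_1 and −0.22 (SE 0.09) in shG9a_4. In ZNF783, 27.2% of the 75-base words of its transcripts also occur in transcripts of other genes, so its count is uncertain. ZNF473, which takes part in the 3′ end processing of histone mRNA, was at 22.6 ± 0.82 CPM in shG9a_1, 23.7 ± 0.29 CPM in shG9a_4 and 26.1 ± 0.13 CPM in shSCR, and ZNF317 at 40.7 ± 1.2, 40.1 ± 1.3 and 43.1 ± 0.81 CPM (SD, n = 3 each).

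ZNF714, ZNF614 and ZNF268 were also among those with the largest changes, with log2 fold changes against shSCR of −0.24 and −0.15, −0.22 and −0.17, and −0.17 and −0.16 in shG9a_1 and shG9a_4. ZNF282 had −0.15 in shG9a_4, where its replicate 2 was lowest, at 16.8 CPM, and −0.012 without that library. The value of ZNF268 in shG9a_4 was −0.037 without replicate 3 of shG9a_4. In shG9a_4, ZNF714 was at −0.091 without replicate 1 of shG9a_4 and ZNF614 at −0.092 without replicate 3, and ZNF714 at −0.051 with the replicate block and without replicate 1 of shSCR. Each of these values misses the threshold, with edgeR adjusted p-values of 0.629 or more.

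In the opposite direction, ZNF532 (ENSG00000074657.13) was at 49.5, 49.0 and 49.5 CPM in shG9a_1, 48.3, 49.0 and 50.7 CPM in shG9a_4, and 44.7, 46.1 and 45.2 CPM in shSCR. It was the only member above every shSCR library with both hairpins (0.893%, against 1.12% of genes), and it was so on TMM-scaled CPM too (against 1.28%). The log2 fold change was 0.14 (SE 0.06, edgeR adjusted p = 0.633) in shG9a_1 and 0.13 (SE 0.06, adjusted p = 1.0) in shG9a_4. With ZNF592 and ZNF687, ZNF532 forms a zinc finger module that binds the chromatin reader ZMYND8. ZNF592 was at 32.3 ± 2.5 CPM in shG9a_1, 33.2 ± 3.3 CPM in shG9a_4 and 34.6 ± 1.7 CPM in shSCR, and ZNF687 at 28.1 ± 2.2, 27.3 ± 3.3 and 28.97 ± 1.6 CPM (SD, n = 3 each). The groups overlapped for both.

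The hairpins were also compared with each other. In shG9a_4 against shG9a_1, 0 members and 0% of all genes tested were called, by edgeR with and without the replicate block; 5 members had an unadjusted p under 0.05 (4.46%, against 4.09%), all of them higher in shG9a_4, and DESeq2 called 0 members. With the block, 6 members had an edgeR unadjusted p under 0.05 (5.36%, against 8.78% of all genes tested). Of the 112, 36 (32.1%) were below 0 without the block, against 50.2% of all genes tested and 51.6% of the genes in range. The shG9a_4 libraries lay above all shG9a_1 libraries in 10 members (8.93%, against 6.14%) and below them in 1 (0.893%, against 3.67%, and 2.96% of the genes in range). The numbers were also 10 (against 5.06%) and 1 (against 4.11%) on TMM-scaled CPM. ZNF141 (0.31, SE 0.09) and ZNF300 (0.29, SE 0.10) had the largest log2 fold changes, followed by ZNF266, ZNF678 and ZNF525 (0.19, 0.19 and 0.18) and by ZNF746 (−0.17). Without replicate 2 of shG9a_4, ZNF678 was at 0.12, ZNF525 at 0.098 and ZNF746 at −0.049. ZNF266 was at 29.5, 30.8 and 31.5 CPM in shG9a_4, above all shG9a_1 libraries, which were at 26.7, 25.7 and 27.1 CPM. The median of the members, 0.026, was −0.0032 without replicate 2 of shG9a_4.

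By level, ZNF207 led the members, at 238 ± 6.2 CPM in shG9a_1, 263 ± 16 CPM in shG9a_4 and 258 ± 4.7 CPM in shSCR (SD, n = 3 each). ZNF207 encodes BuGZ, which binds BUB3 and the mitotic spindle. The shG9a_1 libraries, at 236, 245 and 232 CPM, were below the lowest shSCR library, at 255 CPM, yet its log2 fold change was only −0.099 (SE 0.06, adjusted p = 0.775). Next came ZNF638 (241 CPM over the 9 libraries), ZNF146 (238 CPM), ZNF106 (199 CPM) and ZNF121 (189 CPM). Per kilobase of exon the order changed: ZNF146, a protein made almost wholly of zinc fingers, was highest at 57.3 CPM per kilobase, then ZNF770 at 27.7 and ZNF121 at 26.0, while ZNF704, ZNF268 and ZNF445 were lowest at 1.4 to 1.7.

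None of the 8 members that act on RNA or ribosomes was called with either hairpin, and 6 of them were below 0 in shG9a_1 and 4 in shG9a_4. ZNF638, an RNA- and DNA-binding protein that brings the HUSH silencing complex to unintegrated viral DNA, was at 238 ± 13 CPM in shG9a_1, 241 ± 26 CPM in shG9a_4 and 244 ± 15 CPM in shSCR. ZNF106, an RNA-binding splicing factor, was at 197 ± 20, 200 ± 5.1 and 200 ± 9.4 CPM. The nucleolar protein ZNF330 was at 54.8 ± 2.4, 54.5 ± 1.4 and 57.3 ± 4.0 CPM, and ZNF706 at 41.4 ± 2.8, 43.4 ± 0.25 and 42.5 ± 1.9 CPM (SD, n = 3 each, in the same order). Groups overlapped in all 4 genes.

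Of the 8 members in chromatin complexes, 0 were called, and 2 were below 0 in shG9a_1 (median 0.010) and 4 in shG9a_4 (median 0.0065), where 49.8% and 49.2% of all genes tested were. ZNF451, a SUMO ligase, was at 149 ± 5.6 CPM in shG9a_1, 151 ± 9.5 CPM in shG9a_4 and 150 ± 0.75 CPM in shSCR. ZNF609, a partner of Integrator and cohesin, was at 58.7 ± 5.9, 57.4 ± 4.9 and 59.1 ± 4.9 CPM, and ZNF462 at 56.4 ± 8.9, 51.4 ± 7.2 and 52.1 ± 2.4 CPM. ZNF217, a breast cancer oncogene that works with the CoREST complex, was at 50.2 ± 0.35, 50.2 ± 3.9 and 46.9 ± 1.3 CPM (SD, n = 3 each, in the same order), above all shSCR libraries in shG9a_1 and overlapping them in shG9a_4.

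The 16 DNA-binding regulators with a known role counted 0 calls as well, with 9 below 0 in shG9a_1 and 7 in shG9a_4. ZNF121, reported to bind MYC, was at 182 ± 12 CPM in shG9a_1, 188 ± 6.4 CPM in shG9a_4 and 196 ± 11 CPM in shSCR. ZNF24, a SCAN protein, was at 161 ± 11, 164 ± 25 and 160 ± 11 CPM. ZNF148, also called ZBP-89, was at 107 ± 5.8, 106 ± 13 and 102 ± 8.4 CPM, and the hypoxia-responsive ZNF395 at 100 ± 9.5, 106 ± 4.0 and 97.7 ± 19 CPM (SD, n = 3 each, in the same order). More than 20% of the 75-base words of ZNF395 are shared with other genes, as in ZNF721, ZNF724, ZNF468 and ZNF783.

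Related genes were read in the same fits. Among ZNF genes under the limit, 190 of the 287 tested (66.2%) were below 0 in shG9a_1 and 195 (67.9%) in shG9a_4, with medians of −0.067 and −0.050. None of the 287 was called, but with the replicate block 1 was, lower in shG9a_1. Of the 34 ZBTB genes tested, whose zinc fingers are joined to a BTB domain in place of KRAB, 17 were below 0 with each hairpin. The machinery that KRAB proteins use showed 0 calls in 23 genes. Of these, 19 were below 0 in shG9a_1 (82.6%, against 49.8% of all genes tested, median −0.044). In shG9a_4, 14 were below 0 (60.9%, against 49.2%, median −0.0090). TRIM28 was at 308 ± 20 CPM in shG9a_1, 313 ± 56 CPM in shG9a_4 and 330 ± 14 CPM in shSCR. SETDB1 was at 71.2 ± 4.1, 76.9 ± 1.7 and 77.6 ± 2.7 CPM (SD, n = 3 each, in the same order). The groups overlapped for both genes, but not for all 23. In unscaled CPM, all shG9a_1 libraries were below all shSCR libraries in 7 of the 23 (30.4%) and above them in 0. The lower share was 10.5% of all genes tested and 13.9% of the genes in range. All shG9a_4 libraries were below all shSCR libraries in 1 of the 23 (4.35%, against 4.15% of all genes tested).

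Over the 9 libraries the members varied about as much as other genes: the coefficient of variation of CPM had a median of 7.09% over the members and 6.87% over the 6516 protein-coding genes in their range. ZNF718 (1.92%) and ZNF791 (3.61%) were the steadiest. ZNF598 varied most (19.8%); it encodes the ubiquitin ligase that marks collided ribosomes, and was at 34.95, 43.5 and 40.8 CPM in shG9a_1, 46.7, 23.9 and 47.0 CPM in shG9a_4, and 43.9, 31.1 and 41.8 CPM in shSCR, with its lowest value in replicate 2 of shG9a_4. ZNF142 (17.7%), ZNF22 (16.5%) and ZNF300 (13.8%) followed.

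More members were called by the replicate number of the labels than by either hairpin, and the same held for all genes tested. Of these, 7.47% were called by the number, 0.038% in shG9a_1 and 0.0271% in shG9a_4. The number was tested in the fit with the replicate block, in which the hairpin shares were 0.776% in shG9a_1 and 0.0759% in shG9a_4. In an edgeR test of the number beside the group, 4 members had an adjusted p under 0.05 (3.57%, against 7.47% of all genes tested), and 25 an unadjusted p under 0.05 (22.3%, against 23.2%). ZNF22 averaged 20.7, 23.98 and 16.7 CPM over the libraries numbered 1, 2 and 3 (adjusted p = 0.00617), ZNF142 25.3, 24.8 and 33.7 CPM (adjusted p = 0.0333), ZNF460 48.8, 47.8 and 59.0 CPM (adjusted p = 0.0255) and ZNF770 150.5, 165 and 136 CPM (adjusted p = 0.0367). ZNF22, for example, was highest in number 2 and lowest in number 3 in each of the 3 groups. What the numbers stand for is not stated in the labels, and the count of members turned on single libraries: it was 13 without replicate 2 of shG9a_1, 10 without replicate 2 of shG9a_4, 2 without replicate 2 of shSCR or replicate 1 of shG9a_4, 1 without replicate 3 of shSCR or of shG9a_1, and 0 without replicate 3 of shG9a_4.

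In the authors' deposited table for shG9a_1 against shSCR, 77 of the 112 members were listed and 60 of those had a fold below 1. A posterior probability of different expression (PPDE) of at least 0.95 was given to 6 members (3% of all genes in that table reached it): ZNF525 at a fold of 0.754, ZNF195 at 0.877, ZNF639 at 0.884, ZNF551 and ZNF678 at 0.892 each, and ZNF207 at 0.927. For shG9a_4 the authors' deposited table gave 0 members a PPDE of at least 0.95 (0.614% of its genes reached it), the highest being ZNF562 at 0.897, and 46 of 77 members had a fold below 1. The share of all deposited genes with a fold below 1 was not counted for either hairpin, so the 60 and the 46 stand without a background.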

How the data were processed

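Reads came from stranded total RNA libraries depleted of ribosomal RNA, sequenced as pairs of 75 bases per the labels' protocols. The authors deposited whole-number counts of reads per gene and library, per the file headers in the layout of STAR, and for each hairpin a table with PPEE and PPDE (scores, posterior probabilities, as deposited) and linear folds (ratios, as deposited, hairpin over shSCR). GRCh37 and hg19 are the builds in the submitters' processing notes, and STAR 2.5.2a, DESeq, edgeR 3.14.0 and R 3.3.1 the tools. Neither the annotation release nor the tool behind the deposited tables was found in the sources.

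Reverse-strand counts were used, which held 94.7 to 95.1% of stranded reads. The 4 classes that name no gene (no feature, 12.2 to 15.4% of read pairs; ambiguous, 2.49 to 2.68%; multimapped, 4.57 to 5.49%; unmapped, 2.75 to 4.34%) stayed out of sizes and tests. Symbols were found for 55698 of 60308 IDs. A single edgeR 4.0.16 quasi-likelihood fit in R 4.3.3 (TMM scaling, filterByExpr, 18435 genes) took in all 9 libraries, with 1 mean for each group. Tests were two-sided, with p-values adjusted by Benjamini and Hochberg over all genes tested and a threshold of 0.05, and DESeq2 1.42.0 served as an alternative. The script was tested on simulated data. No pair of replicates was a duplicate. The labels call the replicates biological and do not say how the cultures were split.

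KRAB domains were found with a profile of 40 residues built from 271 windows (E-value under 0.001). GENCODE 29, on another build than the files, served for symbols, biotypes, exon lengths and proteins, and the promoter sequences are RefSeq's on GRCh38.p14. No coordinates of the files' build are given.

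The members, gene lists and tests were chosen with earlier results of these data known. Genes named are the 6 members with the largest absolute log2 fold change in each comparison, any past the threshold, the highest and lowest in level and in variation, those at the limit, and the best expressed 4 of each role list; others are said to have been chosen after their values were seen or are counted as a group.

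Each library's deviation from the mean of its group was correlated with those of the others, at 0.168 to 0.438 (mean 0.287) in all 9 pairs of the same replicate number and at a mean of −0.143 in the other 18. The deviations of a group sum to 0, so the negative mean of the other pairs largely follows from the positive one and adds nothing to it. Libraries of the same number were taken as paired because all 9 of their correlations were positive. This rests on the data alone, and no label ties them to a day or batch. Over the members alone the pairing was less even. Pairs of the same number ranged from −0.124 to 0.748 (mean 0.353). The other pairs ranged from −0.678 to 0.537 (mean −0.175). Replicate 1 of shG9a_1 was at −0.124 with replicate 1 of shSCR and at 0.537 with its replicate 2. The fit with the replicate number as a block (4 residual degrees of freedom in place of 6) is given for the calls, the counts of unadjusted p-values and some genes.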

Additional observations from a re-analysis of the deposited data

How the results depend on the processing

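The counts of members called, the medians, the number of KRAB members below 0, the summed levels and the log2 fold changes of 27 pairs of gene and comparison were recomputed under up to 23 alternatives: RLE size factors, DESeq2, no filter on low counts, unstranded counts, the replicate block, and each library left out with and without that block. The fits that leave out a library with the block, and all alternatives of EHMT2, the summed levels and the KRAB count, were added after the data were seen. Every log2 fold change of those 27 pairs kept its sign. The replicate block gave 0 members called in each comparison, as without it. Among the other ZNF genes it called 1, lower in shG9a_1, where the fit without it called 0. DESeq2 called 1 member in shG9a_1 (ZNF525), at −0.39. With the block and without replicate 2 of shG9a_4, 4 members were called in shG9a_1 and 1 with both hairpins (ZNF525, −0.36), and the cause was not tested. The share of all genes called in that fit is not given here. In the comparisons of hairpins, left-out libraries gave 0 calls in the other cases (0 to 4 in shG9a_1 and 0 to 1 with both hairpins when the block was kept). Medians ranged from −0.066 to −0.027 in shG9a_1, from −0.057 to 0.00091 in shG9a_4, from −0.057 to −0.029 with both hairpins and from −0.0065 to 0.063 in shG9a_4 against shG9a_1, and the KRAB members below 0 numbered 35 to 51 in shG9a_1 and 30 to 48 in shG9a_4. For the replicate numbers, 13 members were called without the filter, and 0 to 13 with a library left out. EHMT2 in shG9a_1 ranged from −1.29 to −1.11 with a library left out (−1.36 to −1.06 with the block as well) and missed the threshold in 3 of those fits. In shG9a_4 it ranged from −0.66 to −0.53 (−0.69 to −0.51 with the block), and passed the threshold in DESeq2 (−0.62), without the filter (−0.62), and with the block and without replicate 1 or 2 of shG9a_1 (−0.61 each). Scaling by TMM, also added after the data were seen, lowered the number of members below all shSCR libraries to 17 in shG9a_1, against 26 in CPM, and ended the separation of the KRAB sums in shG9a_4. Summed levels ranged from 5277 to 5366 CPM in shG9a_1, 5394 to 5564 CPM in shG9a_4 and 5553 to 5602 CPM in shSCR when a library was left out. With 3 libraries a group, the median SE of a member's log2 fold change was 0.086.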
